A study of Mus musculus with 2 samples.

Results

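The LMO, LDB1 and SSBP bridging cofactors were examined as 9 genes chosen by name, Lmo1, Lmo2, Lmo4, Ldb1, Ldb2, Ssbp1, Ssbp2, Ssbp3 and Ssbp4, of 43346 annotated genes in the quantification tables, and all 9 were found there. The material was polyadenylated RNA of G1E-ER4 cells, an immortalised mouse erythroid line derived from G1E cells. G1E cells lack the transcription factor GATA1, and the ER4 line carries GATA1 fused to the ligand-binding part of the estrogen receptor, so that estradiol activates it and starts terminal erythroid differentiation. The only group consisted of cells given 10 nM of 17beta-estradiol over 14 h, sequenced as 2 paired-end libraries numbered as biological replicates 1 and 2. The line is a single cell line, both libraries carry the GATA1 deletion and the fusion, and no untreated sample was analysed here, so the values are levels at 14 h and not responses to GATA1. The labels give both libraries the same biosample record, and the spread between them may therefore be partly technical.

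LIM-only proteins consist of little more than LIM zinc fingers and bind no DNA themselves. In erythroid cells LMO2 joins a DNA-bound pair of TAL1 and an E protein, and GATA1 or GATA2, to LDB1, which binds LIM domains through its carboxyl-terminal part and dimerises through its amino-terminal part, so that distant enhancers and promoters can be held together. SSBP2, SSBP3 and SSBP4 bind LDB1 and protect it and its LIM partners from ubiquitin-dependent degradation, whereas SSBP1, in spite of its name, belongs to another protein family and coats single-stranded mitochondrial DNA.

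The starts used by Ldb1 and Ssbp3 carried most of what could be read about promoters, so 4 windows of 300 bases are shown, each reaching from 250 bases before to 50 bases after a RefSeq transcript start on GRCm38.p6 and written along the gene's strand. Capitals mark every AGATAA or TGATAA (the GATA-factor motif, searched on both strands), every CAGATG or CAGCTG (E boxes, also searched on both strands) and the CTG that lies 7 or 8 bases from a GATA motif in the combined TAL1 and GATA1 motif. The first window is the upstream start of Ssbp3 (chr4:106911220-106911519, plus strand), where the full-length coding transcript Ssbp3-201 begins. The second is the internal start of Ssbp3 (chr4:106922935-106923234, plus strand). The third is the upstream RefSeq start of Ldb1 (chr19:46045262-46045561, minus strand). It lies 97 bases upstream of the nearest deposited transcript start, that of Ldb1-206, and Ldb1-201 starts further downstream. Neither transcript begins within that window. The last is the downstream start of Ldb1 (chr19:46039572-46039871, minus strand), where Ldb1-202 begins.
Ssbp3 upstream: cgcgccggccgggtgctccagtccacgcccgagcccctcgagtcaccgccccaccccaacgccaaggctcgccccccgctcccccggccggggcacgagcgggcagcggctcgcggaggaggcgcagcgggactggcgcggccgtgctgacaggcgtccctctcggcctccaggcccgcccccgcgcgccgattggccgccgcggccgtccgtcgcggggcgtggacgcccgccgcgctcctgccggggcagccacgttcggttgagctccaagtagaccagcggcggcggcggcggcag
Ssbp3 internal: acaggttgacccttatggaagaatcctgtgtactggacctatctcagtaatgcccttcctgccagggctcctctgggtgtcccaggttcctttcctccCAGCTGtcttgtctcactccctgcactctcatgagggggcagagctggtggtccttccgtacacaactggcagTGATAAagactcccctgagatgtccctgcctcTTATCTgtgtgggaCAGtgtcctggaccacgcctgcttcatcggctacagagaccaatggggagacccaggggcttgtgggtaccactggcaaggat
Ldb1 upstream: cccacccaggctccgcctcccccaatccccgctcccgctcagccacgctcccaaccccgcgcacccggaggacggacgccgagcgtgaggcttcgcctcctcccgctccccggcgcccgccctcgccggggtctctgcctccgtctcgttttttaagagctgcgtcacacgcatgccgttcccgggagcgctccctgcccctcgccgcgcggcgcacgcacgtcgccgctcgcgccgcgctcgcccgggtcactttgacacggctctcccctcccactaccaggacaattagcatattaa
Ldb1 downstream: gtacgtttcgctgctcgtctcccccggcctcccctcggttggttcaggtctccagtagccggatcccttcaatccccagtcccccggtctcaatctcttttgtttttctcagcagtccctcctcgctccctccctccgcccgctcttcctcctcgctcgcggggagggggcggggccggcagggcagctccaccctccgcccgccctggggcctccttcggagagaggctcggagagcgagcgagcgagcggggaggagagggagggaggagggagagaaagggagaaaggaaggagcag

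The internal Ssbp3 window was the only one of 13 member windows, which belong to 7 of the 9 genes (not Lmo2 and Ldb2) and partly overlap, with the combined motif. It read TTATCT, the reverse complement of AGATAA, from 47 bases before the start, followed 8 bases later by CAG. It also held TGATAA 79 bases before the start and CAGCTG 152 bases before it. The combined motif, CTG followed after 7 or 8 bases by AGATAA or TGATAA, was present in 0.972% of all 32817 RefSeq windows of this length. Single motifs are much commoner, with AGATAA in 11.2% of all windows, TGATAA in 9.06% and CAGCTG in 16.3%. Among the member windows AGATAA was found in 2, the second being a further Ldb1 window (chr19:46037021-46037320, minus strand) whose start lies 1070 bases from the nearest deposited transcript. CACCC, the motif of KLF factors, was found in 9 of the 13 windows, beside 57.5% of all windows. The upstream Ssbp3 window was 80.3% G or C with 50 CpG dinucleotides, and the internal one was 56.3% G or C with 3. Over all windows the median was 52.7% G or C with 7 CpG. The Ldb1 windows printed were 71.3% (upstream) and 67.3% (downstream) G or C and held 41 and 23 CpG. A motif match describes the letters only, since no binding was measured.

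The libraries held 38395481 (replicate 1) and 60097379 (replicate 2) expected counts, a depth ratio of 1.57. A count of 0 allows up to 3 counts, which is 0.0781 CPM (counts scaled to 1e6 per library) in replicate 1 and 0.0499 CPM in replicate 2, and this limit covers counting error only. Levels are given in TPM, a share of all transcripts scaled to 1e6, which divides counts by the effective length of the transcripts to which reads were assigned. Of the 9 genes, 7 were expressed, meaning at least 1 TPM in both libraries, compared with 37.6% of 21461 nuclear protein-coding genes. Lmo2, Ldb1, Ssbp3 and Ssbp4 exceeded 50 TPM in both libraries, a level reached by 9.05% of protein-coding genes. No reads of the members were shared with other genes in the quantification, as the posterior SD of each gene count was 0.

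**Figure D1:**
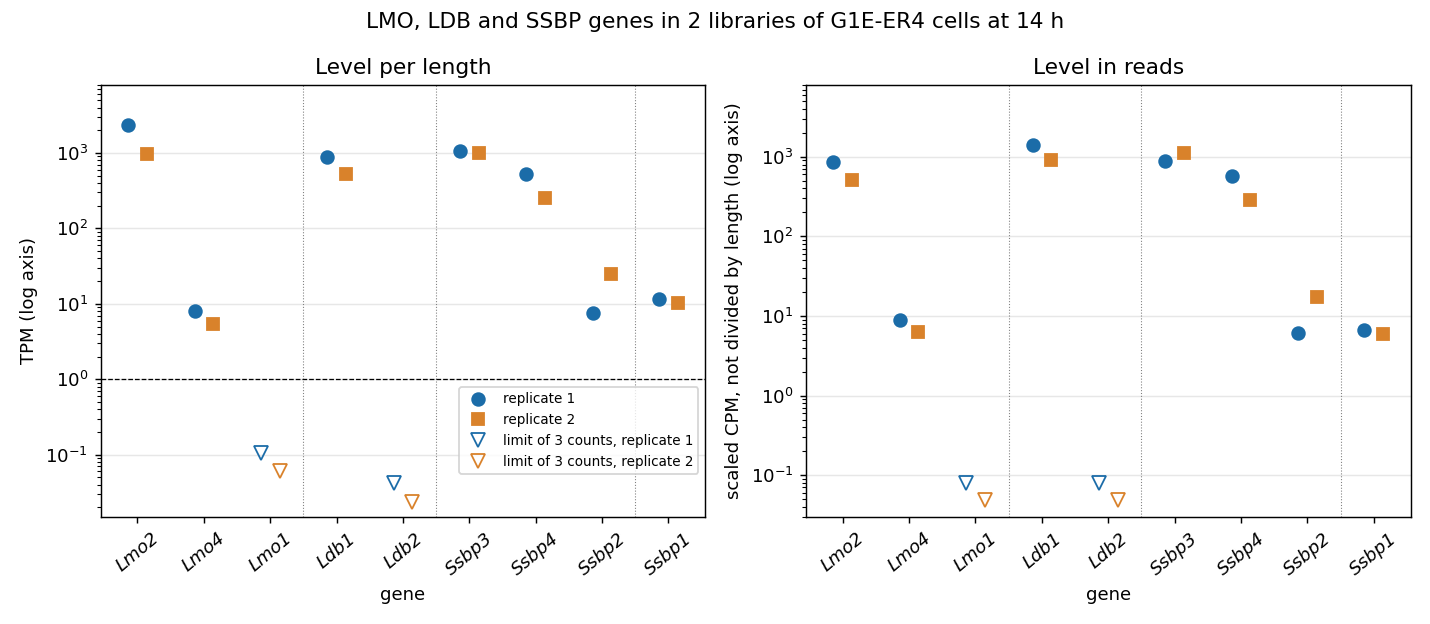
TPM (left) and scaled CPM not divided by length (right) of the 9 genes on log axes, 1 point per library; open triangles give the limit of 3 counts for Lmo1 and Ldb2, and the dashed line is 1 TPM. Lmo2, Ldb1, Ssbp3 and Ssbp4 lie between 249.9 and 2383 TPM, Lmo4, Ssbp1 and Ssbp2 between 5.45 and 25.1 TPM, and Lmo1 and Ldb2 have no counts.

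Lmo2, the LIM-only partner of TAL1 and a T-cell oncogene when misexpressed, measured 2383 TPM in replicate 1 and 964 TPM in replicate 2 (32075 and 31458 counts). Its mean was 1674 ± 1003 TPM (SD, n = 2), and it was the 51st and 131st most abundant of the protein-coding genes. Lmo2 therefore had the highest mean TPM of the 9 genes and also the widest SD. Lmo4, a LIM-only gene known from breast epithelium and neurons, measured 8.12 and 5.45 TPM in replicates 1 and 2, from 329 and 390 counts. The Lmo2 level was 290-fold the Lmo4 level in replicate 1 and 174-fold in replicate 2, on the scale of TPM + 0.1. In CPM not divided by length it was 96.4-fold and 79.4-fold. Lmo1, another T-cell oncogene of the family, had 0 counts in both libraries. Its limit of 3 counts is 0.107 TPM in replicate 1 and 0.0603 TPM in replicate 2, so Lmo2 was at least 22349-fold higher than Lmo1 in replicate 1 and at least 16000-fold higher in replicate 2. Lmo2 held 99.7% and 99.4% of the summed TPM of the 3 LIM-only genes. The Lmo2 protein of 158 residues is 52.3% identical to Lmo1 and 43.8% identical to Lmo4 over aligned positions.

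Ldb1, the dimerising adaptor, measured 873 TPM in replicate 1 and 529.8 TPM in replicate 2 (53203 and 55580 counts), a mean of 702 ± 243 TPM (SD, n = 2). Ldb2, the other LIM-domain-binding gene and known from endothelium and brain, had 0 counts in both. Against the limit of 3 counts, Ldb1 was at least 20724-fold higher than Ldb2 in replicate 1 and at least 22374-fold higher in replicate 2. All LDB reads were thus from the Ldb1 gene, although the 2 proteins are 76.7% identical over 369 aligned residues.

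Ssbp3 had the highest TPM of the SSBP genes over all its transcripts, with 1058 TPM in replicate 1 and 1001 TPM in replicate 2 (33178 and 67918 counts; mean 1030 ± 40.3 TPM, SD, n = 2). Ssbp4 measured 531 and 249.9 TPM (21466 and 17920 counts), a mean of 391 ± 199 TPM. Ssbp2 measured 7.63 and 25.1 TPM, from 228 and 1078 counts. Ssbp3 held 66.3% of the summed TPM of Ssbp2, Ssbp3 and Ssbp4 in replicate 1 and 78.5% in replicate 2, whereas Ssbp2 held 0.478% and 1.97%. With protein-coding transcripts alone the order of means turned round, Ssbp4 at 391 and Ssbp3 at 305.1 TPM, and the libraries disagreed, with 531 TPM of Ssbp4 and 327 TPM of Ssbp3 in replicate 1 but 249.9 and 283 TPM in replicate 2. Per kilobase of the longest transcript, Ssbp4 was also above Ssbp3 in replicate 1 (389 and 278) and below it in replicate 2 (197 and 345). Ssbp3 exceeded Ssbp2 by 137-fold in replicate 1 and 39.7-fold in replicate 2, more than the spread between libraries, meaning that both libraries gave 1 direction and that the mean log2 ratio was over 2 times their range. The excess of Ssbp4 over Ssbp2 was 68.7-fold in replicate 1 and 9.91-fold in replicate 2, and its log2 mean of 4.71 was under 2 times the range of 2.79, so it did not meet that rule, although it did in CPM not divided by length (92.6-fold and 16.5-fold). Ssbp3 over Ssbp4 was 1.99-fold in replicate 1 and 4.01-fold in replicate 2 and did not meet it either. The summed TPM of the 3 SSBP genes was 1.83 times that of Ldb1 in replicate 1 and 2.41 times in replicate 2, which met the rule. That excess depended on what was counted as SSBP RNA, because with protein-coding transcripts alone the mean log2 ratio of Ldb1 to the SSBP sum was -0.0085, against -1.07 for all transcripts, and in CPM not divided by length it was -0.34, which did not meet the rule.

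Ssbp1 measured 11.8 TPM in replicate 1 and 10.4 TPM in replicate 2, from 246 and 371 counts (mean 11.1 ± 0.962 TPM, SD, n = 2). Its product of 148 residues was 21.9% identical to Ssbp2, 19.9% to Ssbp3 and 20.8% to Ssbp4, near the 18.9% found with the unrelated Ldb1, while Ssbp2 and Ssbp3 were 84.1% identical to each other. Twnk, the mitochondrial helicase that works beside SSBP1, had 9.52 and 9.70 TPM, and Ssbp1 was 1.23-fold and 1.07-fold higher in replicates 1 and 2. Tfam, which packages and transcribes mitochondrial DNA, had 3.05 and 5.56 TPM, and Ssbp1 was 3.77-fold and 1.86-fold higher. Neither difference was larger than the spread between libraries, and both turned round, to log2 means of -2.09 for Twnk and -1.06 for Tfam, when counts were not divided by length.

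The order of mean TPM was Lmo2, Ssbp3, Ldb1, Ssbp4, Ssbp2, Ssbp1 and Lmo4. Of its 6 pairs of neighbours, 1 differed by more than the spread between libraries, Ldb1 over Ssbp4, with log2 ratios of 0.72 in replicate 1 and 1.08 in replicate 2. Lmo2 and Ssbp3 changed places between libraries, with log2 ratios of 1.17 and -0.055, as did Ssbp2 and Ssbp1, with -0.62 and 1.26. The top of the order depended on length. In scaled CPM, which uses TMM-scaled library sizes and no length, Ldb1 measured 1422 and 901, Ssbp3 887 and 1101, Lmo2 858 and 509.9, and Ssbp4 574 and 290 in replicates 1 and 2. The mean log2 ratio of Lmo2 to Ldb1 was 1.16 in TPM and -0.78 in scaled CPM. Divided instead by the longest deposited transcript of each gene, a setting chosen after the data were seen, Ldb1 stood above Lmo2 in both libraries, with a mean log2 ratio of Lmo2 to Ldb1 of -0.35. The split into 4 abundant, 3 low and 2 undetected genes was the same on each of these scales.

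The effective length of Lmo2 was 442 bases in replicate 1 and 600 bases in replicate 2. Lmo2-206, a model of 478 bases that ends inside the coding sequence with no annotated 3′ end, held 75.1% of Lmo2 TPM in replicate 1 and 22.5% in replicate 2. Its expected counts were 18045 ± 116 in replicate 1 and 3808 ± 139 in replicate 2 (posterior SD of the quantification). Lmo2-207 held 9.35% and 39.6%, and Lmo2-204 held 11.7% and 32.2%. These 3 models all lack an annotated 3′ end, and together they took 96.1% of Lmo2 TPM in replicate 1 and 94.3% in replicate 2. Grouped by start, the proximal cluster of Lmo2 (chr2:103970129-103970244, plus strand, GRCm38) held 79.0% of TPM in replicate 1 and 28.1% in replicate 2. The intermediate start, 613 bases upstream of Lmo2-206, held 11.7% and 32.2%, and the distal start, 12155 bases upstream of it, held 9.35% and 39.6%. In expected counts the proximal cluster held 69.6% and 26.2%. The most abundant transcript of Lmo2 by TPM thus differed between the libraries, being Lmo2-206 in replicate 1 and Lmo2-207 in replicate 2. In expected counts Lmo2-206 led in replicate 1 with 56.3%. In replicate 2 Lmo2-204 held 37.2% of the counts and Lmo2-207 held 36.6%. The only complete transcript from the distal and intermediate starts, Lmo2-208, had 0 counts in both libraries and encodes 158 residues, which are the 158 residues in the open-ended Lmo2-204 and are contained in the 220 residues of Lmo2-203 and the 228 of Lmo2-202, both from the proximal cluster. Lmo2-203 and Lmo2-202 held between 1.57% and 2.95% of TPM in each library. The first exon of Lmo2-206 lies within that of Lmo2-203, and its other exons lie within exons of Lmo2-204 and Lmo2-207. The division of reads among the Lmo2 models, and so among the starts, is therefore the quantification's estimate.

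**Figure D2:**
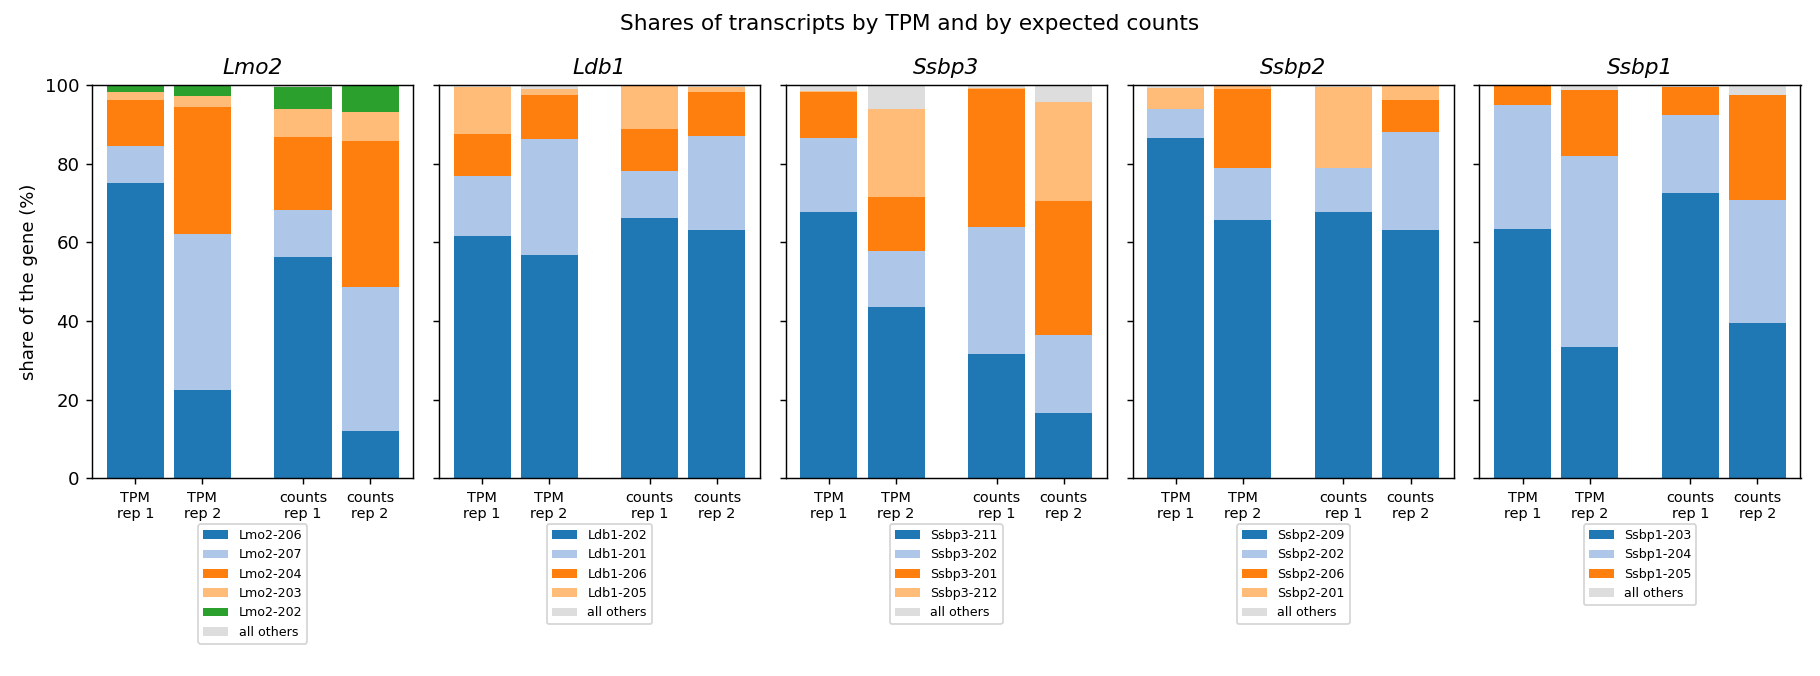
Shares of each transcript in its gene for Lmo2, Ldb1, Ssbp3, Ssbp2 and Ssbp1, in stacked bars from 0 to 100%, by TPM (left pair) and by expected counts (right pair) in replicates 1 and 2; grey is the sum of transcripts under 5% in all 4 bars. Lmo2-206 takes 75.1% of TPM in replicate 1 and 22.5% in replicate 2, and Ssbp3-212 is nearly absent in replicate 1 and takes 22.4% in replicate 2.

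Ldb1-202, from the downstream start, was the main Ldb1 transcript in both libraries, with 61.6% of Ldb1 TPM in replicate 1 and 56.9% in replicate 2. Ldb1-201, whose start lies 5293 bases upstream, held 15.3% and 29.5%. The 2 transcripts encode the same protein of 375 residues. Ldb1-206, from the upstream start, held 10.7% and 11.1% and encodes 373 residues, with the first 297 in common. Ldb1-205, from the downstream start, encodes 319 residues with the first 299 in common and so a different carboxyl-terminal part, the part of LDB1 that binds LIM domains. It held 12.0% in replicate 1 and 1.38% in replicate 2 (5939 ± 249 and 741 ± 66.2 counts, posterior SD). By start, the downstream cluster held 73.6% and 58.3% of Ldb1 TPM and the upstream cluster 26.0% and 40.6%. Ldb1-207 and Ldb1-208, which add 36 residues at the amino end, had 0 counts in both libraries. The upstream end of Ldb1 overlaps the first 329 bases of Pprc1 on the other strand. Pprc1 had 2490 and 5606 counts. The quantification divided no Ldb1 reads between the 2 genes (posterior SD of 0), and whether it used strand is not given in the sources used here.

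Ssbp3 combined a high level with a large non-coding part, which was the larger part in TPM and the smaller one in counts. Transcripts typed as processed transcripts, which have no annotated reading frame, held 69.1% of Ssbp3 TPM in replicate 1 and 71.7% in replicate 2, and 32.4% and 45.8% of its expected counts. The coding Ssbp3 transcripts amounted to 327 TPM in replicate 1 and 283 TPM in replicate 2. Ssbp3-211, a model of 629 bases and 9 exons, held 67.8% and 43.6% of TPM. In expected counts the coding Ssbp3-201 led in both libraries, with 35.1% and 33.9%, and Ssbp3-211 held 31.7% and 16.5%. Ssbp3-211 begins 40 bases downstream of the internal start whose window holds the combined motif printed above, and 11755 bases downstream of Ssbp3-201. Ssbp3-212 starts at a further internal exon, and it had 10.9 ± 7.95 counts in replicate 1 and 17097 ± 375 counts in replicate 2 (posterior SD), or 0.02% and 22.4% of TPM. The coding transcripts Ssbp3-202 (361 residues) and Ssbp3-201 (388 residues) held 18.7% and 14.1%, and 11.9% and 13.9%, in replicates 1 and 2. Their upstream start cluster held 30.9% of TPM in both libraries. Internal exons are shared between these models, so the division of reads among them is the quantification's estimate.

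**Figure D3:**
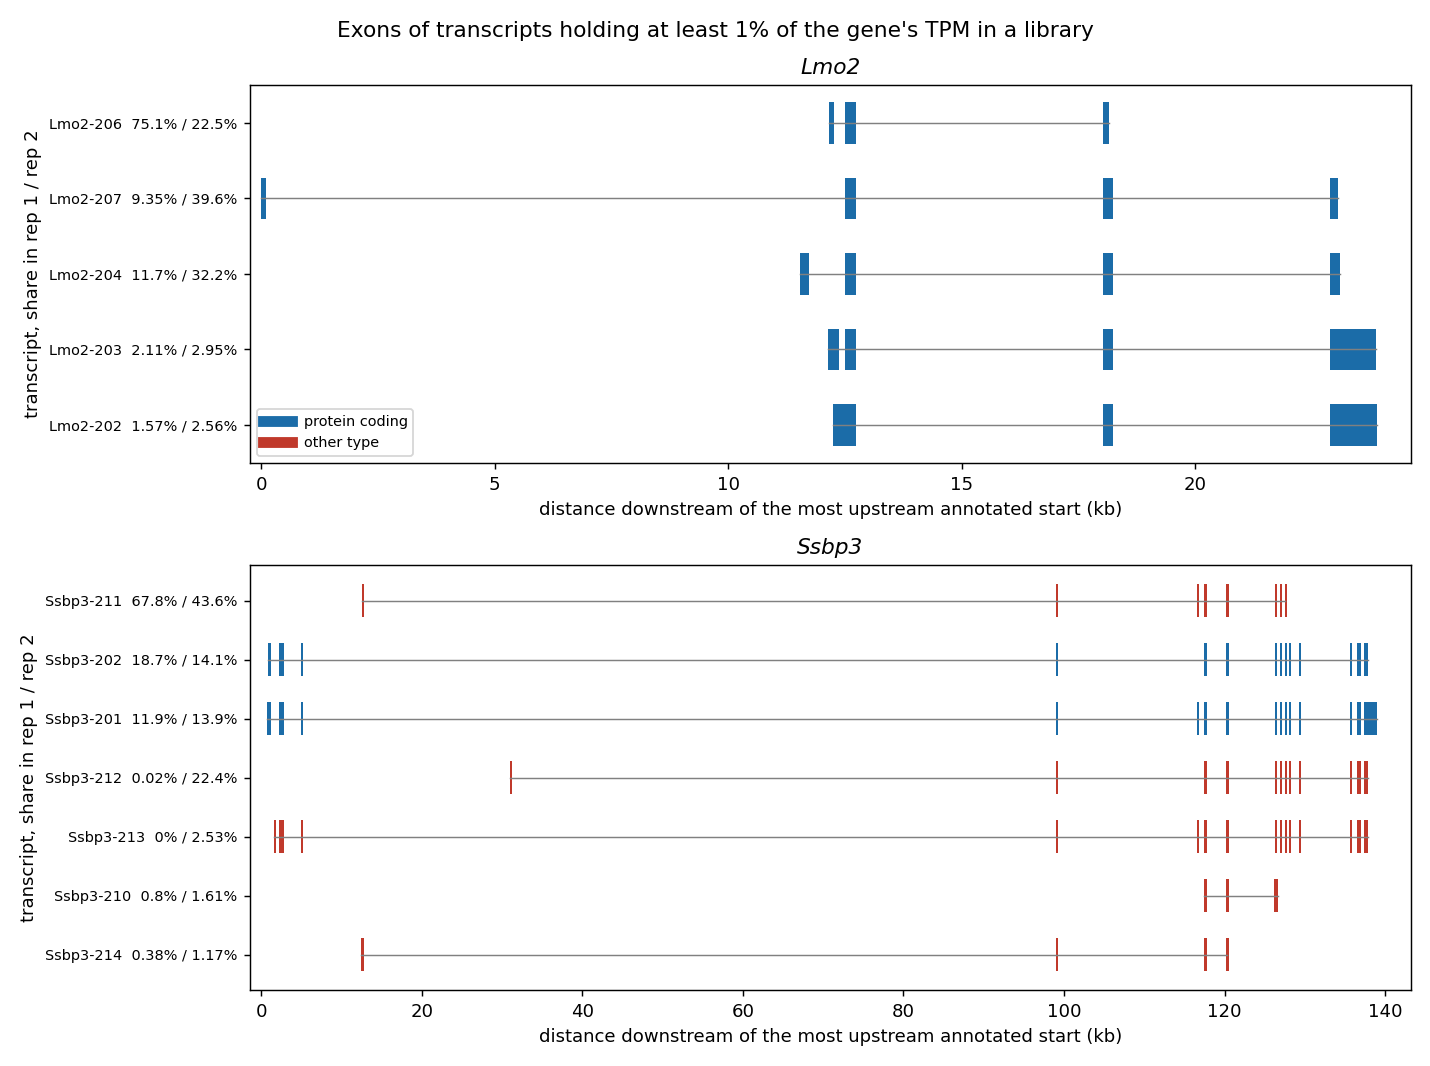
Exons (boxes) of the Lmo2 and Ssbp3 transcripts that held at least 1% of their gene's TPM in a library, against distance in kb from the most upstream annotated start; blue is protein coding, red other types, and the TPM share in replicates 1 and 2 stands beside each name. Lmo2-206, which leads Lmo2 in replicate 1, stops at the third exon, and Ssbp3-211, which leads Ssbp3 in TPM but not in counts, starts 11755 bases downstream of Ssbp3-201 and stops before the last coding exons.

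Ssbp2 was mostly assigned to a non-coding model, in TPM and in counts. Ssbp2-209, a processed transcript that begins 808 bases upstream of Ssbp2-202, held 86.5% of Ssbp2 TPM in replicate 1 and 65.6% in replicate 2, and 67.7% and 63.1% of its counts. Coding Ssbp2 transcripts amounted to 0.96 and 3.54 TPM, so that with coding transcripts alone 6 of the 9 genes, and not 7, reached 1 TPM in both libraries. Ssbp2-206, a target of nonsense-mediated decay by its type, was at 0 counts in replicate 1 and had 87.1 ± 9.94 counts in replicate 2. Ssbp4 has 1 deposited transcript, of 17 exons and 363 residues. Ssbp1 TPM was split between Ssbp1-203 with 63.5% and 33.3% and Ssbp1-204 with 31.5% and 48.6%. Each had at most 179 counts, with posterior SDs of 13.5 to 21.8 counts. Ssbp1-204, a model of 579 bases, ends inside the coding sequence with no annotated 3′ end. Lmo4-201 held 81.7% and 81.5% of Lmo4 TPM, and the retained intron Lmo4-204 held 15.4% and 16.3%. Of the 7 expressed genes, 5 had the same most abundant transcript in both libraries, the exceptions being Lmo2 and Ssbp1. In expected counts it was 6, as Ssbp1-203 led in both libraries.

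Replicate 2 was set against replicate 1 by an exact binomial test (two-sided) of each gene's counts, with Benjamini-Hochberg adjustment over 11230 genes, a comparison of these libraries and not of conditions. A call needed a fold of 1.5 or more besides an adjusted p below 0.05, and was made for 40.9% of all genes tested, 24.0% higher in replicate 2 and 16.9% higher in replicate 1. Of the 7 members tested, 4 were called, 1 higher in replicate 2 and 3 higher in replicate 1, a share that is read against that background. Ssbp2 was 2.87-fold higher in replicate 2 (95% interval 2.48 to 3.32, exact test, adjusted p = 8.7e-57), with scaled CPM of 6.10 in replicate 1 and 17.5 in replicate 2. Ssbp4 was 1.98-fold (1.94 to 2.02), Lmo2 1.68-fold (1.66 to 1.71) and Ldb1 1.58-fold (1.56 to 1.60) higher in replicate 1, each with an adjusted p below 1e-300 by the exact test. Ldb1 lost its call when library totals replaced the TMM sizes (log2 ratio of replicate 2 to replicate 1 of -0.58). Ssbp3 was 1.24-fold higher in replicate 2 (1.22 to 1.26) and Lmo4 1.39-fold higher in replicate 1 (1.20 to 1.62), both short of the fold required. Ssbp1 had a ratio of replicate 2 to replicate 1 of 0.914 (0.776 to 1.08; exact test, adjusted p = 0.346). These intervals cover counting error only. The biological coefficient of variation of 0.428 was estimated by edgeR from the same difference between the 2 libraries, so its exact test is not an independent check of these calls. That test called 0 of the 7 members and 70 of 11230 genes; 0 members and 636 genes had an unadjusted p under 0.05, and the smallest member p was 0.0988, of Ssbp2.

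The library difference was larger in TPM than in counts for Lmo2, with a log2 ratio of replicate 2 to replicate 1 of -1.31 in TPM and -0.75 in scaled counts, and its effective length was 1.36 times as long in replicate 2. For Ssbp3 the direction depended on the scale, at -0.080 in TPM and 0.31 in scaled counts, with an effective length 1.21 times as long in replicate 2. Over genes with at least 1000 counts the median log2 ratio was -0.15 in TPM and 0.0029 in scaled counts, so TPM ratios stand about that far below those of counts. The erythroid marker genes also differed between the libraries. Of 8 markers 5 were called higher in replicate 2 and 1, Klf1, higher in replicate 1, beside 24.0% and 16.9% of all genes tested. Hbb-bs and Hba-a1 summed to 20276 TPM in replicate 1 and 70680 TPM in replicate 2, while the other 6 markers summed to 1608 and 1034 TPM, the opposite direction. Their part in the member differences was not tested. In bulk RNA, fewer cells of a type and less RNA per cell cannot be told apart.

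**Figure D4:**
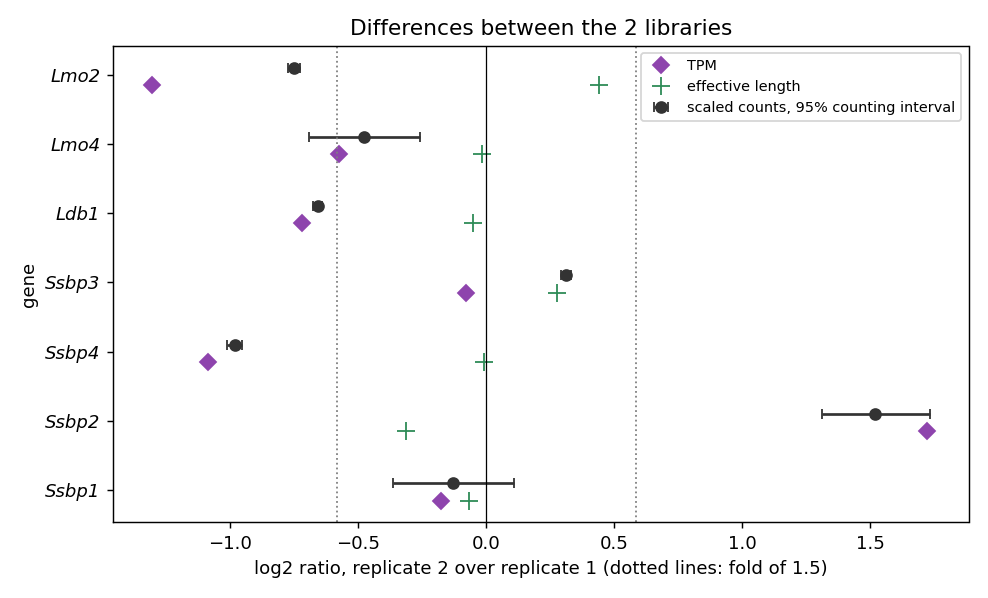
Log2 ratio of replicate 2 to replicate 1 for the 7 genes with counts, by scaled counts (circles with 95% counting intervals), by TPM (diamonds) and for effective length (crosses); dotted lines mark a fold of 1.5. Ssbp2 is higher in replicate 2 on both scales, Ssbp4, Lmo2 and Ldb1 are higher in replicate 1 on both, and Ssbp3 lies on either side of 0.

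All 7 listed DNA-binding partners of LMO2 and LDB1 were expressed. Gata1 measured 1132 and 2656 TPM in replicates 1 and 2, a gene whose reads here may come from the added fusion. Tcf3, an E protein, measured 764 and 436 TPM, Tal1 329 and 246 TPM, and Gata2, the GATA factor of earlier progenitors, 129 and 67.4 TPM. Lmo2 exceeded Tal1 by 7.24-fold in replicate 1 and 3.92-fold in replicate 2, and Ldb1 exceeded Tal1 by 2.65-fold and 2.16-fold, both more than the spread between libraries. In CPM not divided by length the excess of Lmo2 over Tal1 was smaller, 1.67-fold and 1.58-fold, and that of Ldb1 was 2.76-fold and 2.79-fold. Of the 7 partners 4 were called between libraries, 2 in each direction, beside 40.9% of all genes, with a median log2 ratio of 0.26 beside 0.046 over all genes tested. Of 9 further partners 8 were expressed, led by Zfpm1, the GATA1 cofactor FOG1, with 4080 and 2191 TPM. Gfi1b, a repressor, measured 368 and 652 TPM, Cbfa2t3, the corepressor ETO2, 346 and 199.8 TPM, and Runx1 299 and 181 TPM. Of these 9 genes 3 were called higher in replicate 2 and 1 higher in replicate 1, beside 24.0% and 16.9% of all genes.

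The LIM homeodomain genes, which compete for LDB1 in neurons and other tissues, were nearly silent. None of 12 was expressed, 11 were under 0.1 TPM in both libraries and 5 had 0 counts in both, Lhx2 and Isl1 among them. The largest count was that of Lhx3, with 11 in replicate 1 and 4 in replicate 2. Of 9 other LIM-only genes 3 were expressed, Crip1 (8.37 and 19.5 TPM), Crip2 (11.4 and 10.7 TPM) and Fhl3 (4.34 and 2.51 TPM). Lmo3, the remaining LMO gene, had 5 and 0 counts. Lmo2 thus stood at 1674 ± 1003 TPM (SD, n = 2). No other listed LIM-only gene, Lmo4 included, and no LIM homeodomain gene exceeded the mean of 13.9 TPM of Crip1.

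Rlim, the ubiquitin ligase that targets LDB1 and LIM factors and against which SSBP proteins protect, measured 1.61 and 3.13 TPM in replicates 1 and 2. Ldb1 exceeded Rlim by 511-fold in replicate 1 and 164-fold in replicate 2, more than the spread between libraries, and by 170-fold and 45.3-fold in CPM not divided by length. The other 3 genes of that list were Stub1 (47.7 and 72.7 TPM), Rnf6 (19.1 and 24.9 TPM) and Cul3 (20.1 and 12.4 TPM). Of the Wnt enhanceosome genes, whose PYGO and BCL9 products bind a complex of LDB and SSBP, 4 of 9 were expressed. Pygo2 measured 370.1 and 157 TPM and Ctnnb1 188 and 83.6 TPM, with Tcf7l2 at 6.30 and 4.05 TPM and Bcl9 at 4.48 and 2.99 TPM. Tcf7 and Lef1 had 0 counts in both libraries. Of 10 mitochondrial DNA replication genes, the group to which Ssbp1 belongs by function, 9 were expressed, from Polg at 242 and 177 TPM and Lig3 at 89.2 and 43.6 TPM through Polrmt at 23.3 and 23.6 TPM to Primpol, which was under 1 TPM. All 7 nuclear single-stranded DNA binding genes were expressed, led by Nabp2 with 193 and 186 TPM, Rpa1 with 76.6 and 127 TPM, Rpa2 with 46.2 and 82.2 TPM and Ints3 with 27.8 and 32.2 TPM. Between libraries, 40.9% of all genes tested were called, 24.0% higher in replicate 2 and 16.9% higher in replicate 1. Beside these shares, 2 of the 4 genes of the Rlim list were called higher in replicate 2. Of the 5 Wnt genes tested, 2 were called higher in replicate 1. Of the mitochondrial genes 1 of 10 was called in each direction, and of the nuclear ones 2 of 7 were called higher in replicate 2 and 1 higher in replicate 1.

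**Figure D5:**
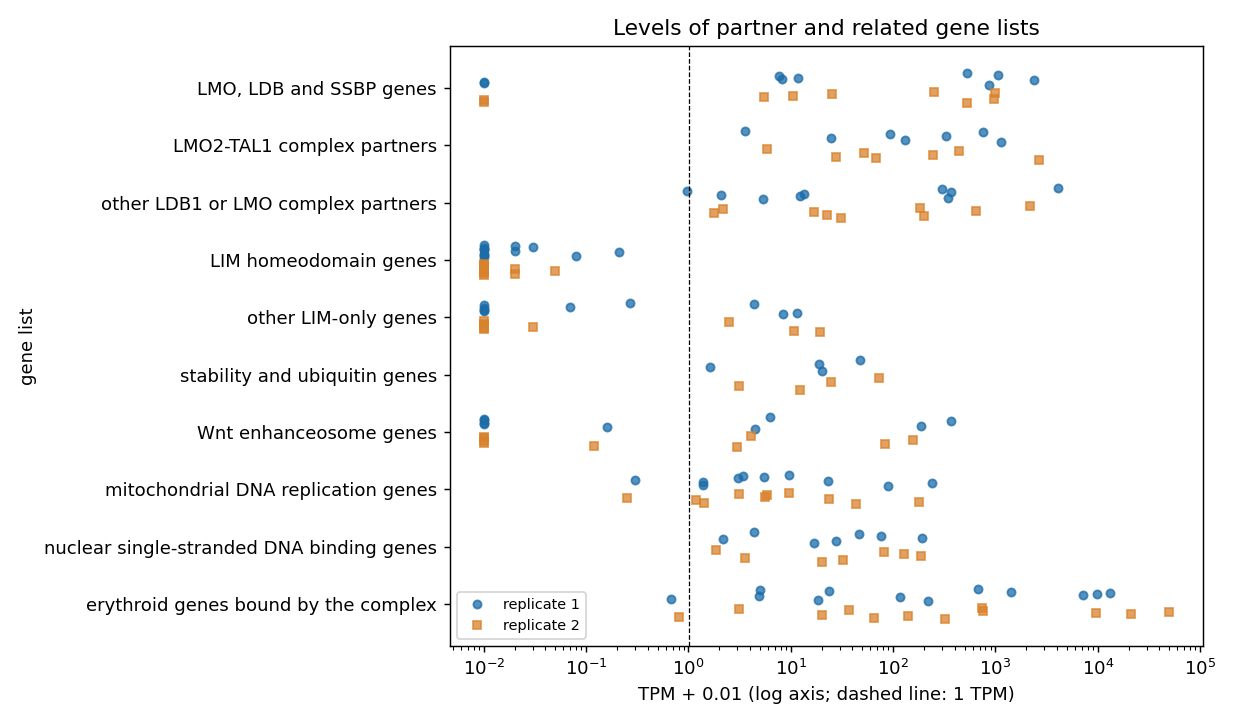
TPM + 0.01 on a log axis of the 9 genes and of 9 related gene lists, 1 point per gene and library; the dashed line is 1 TPM. The LIM homeodomain genes lie left of 1 TPM throughout, while all 7 partners in the LMO2-TAL1 list lie to its right.

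Of 12 erythroid genes known to be bound by the complex, 11 were expressed, and 7 were called between libraries, 6 of them higher in replicate 2, beside 40.9% called and 24.0% higher in replicate 2 among all genes tested. Hbb-bs, an adult beta globin gene, measured 13158 TPM in replicate 1 and 49652 TPM in replicate 2. Klf1, an erythroid transcription factor gene, measured 1422 and 754 TPM, which is the direction of Lmo2 and Ldb1. The Hba-a1 and Hba-a2 genes are near-identical copies whose reads may be divided between them, so their single values are uncertain. As a check of the labelled cell type, all 8 erythroid markers were expressed. Of 6 myeloid markers 1 was expressed (Cd68), of 5 lymphoid markers none, and of 6 neural and endothelial markers 1 (Tubb3), with summed TPM between 0.23 and 3.55 for these lists. Elane, S100a8, Pax5, Pecam1 and Cdh5 had 0 counts in both libraries.

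The protein-coding genes with levels most like those of Lmo2 over the 2 libraries, by Euclidean distance of log2(TPM + 0.1), were Scand1 (distance 0.18), Fkbp8 (0.27) and Anp32b (0.27). For Ldb1 they were Mrpl2 (0.050), Ccna2 (0.051) and Ap2a1 (0.091). With 2 libraries such likeness means a similar level and a similar library ratio, and no more. The overlap of Lmo2 with the gene 4931422A03Rik on the other strand bore on no value, as that gene had 1 count in replicate 1 and 0 in replicate 2.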

How the data were processed

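PolyA-selected RNA of 1 group of G1E-ER4 cells was measured in 2 libraries, with reads on mm10 (GRCm38) and GENCODE M4 as the annotation, per the labels and the deposited notes. Which aligner, which quantifier version and which strand setting were used is not given in the sources used here. Each library has a gene table and a transcript table with the column names of RSEM, per the file headers. In the deposited expected counts, which are estimates, reads that match several transcripts are divided among them. The deposited TPM and the deposited FPKM divide them by effective transcript length, so a gene whose reads are placed on short models gets a high value. The isoform percent, also deposited, gives what a transcript contributes to the TPM of its gene. The deposited posterior SD of counts and bounds of TPM, a signal unit here, describe the uncertainty of the assignment, and the bounds are not reported.

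Symbols, transcript types, coordinates and reading frames were taken by identifier from GENCODE M21. Of 57 member transcripts, all were found there and 51 had the deposited length. Of 43346 Ensembl genes, 42462 received symbols. The remaining 26345 rows of the gene tables held 2 counts in replicate 1 (5.2e-06%) and 0 in replicate 2, and were left out. Proteins were translated from the annotated reading frames and aligned with Biopython 1.88. Promoter windows are those of RefSeq.

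Expected counts were rounded to whole numbers and compared with an exact two-sided binomial test (scipy 1.17.1) against library sizes scaled by the TMM factors of edgeR 4.0.16 (0.974 and 1.03) in R 4.3.3, for genes whose 2 counts summed to 10 or more, with 0.5 counts added for folds. With 1 group and 2 libraries, no residual degrees of freedom were left for the quasi-likelihood test. The procedure was tested on simulated data with counting error only, so that test does not cover other variation between libraries. Pair ratios are log2 ratios of TPM + 0.1. Transcript starts under 500 bases apart were joined. The genes named were drawn from all 9 members, the 4 highest genes of each list and up to 2 under 0.1 TPM, both genes of each of 14 pairs, the 3 nearest genes to Lmo2 and to Ldb1, and member transcripts with at least 10% in both libraries. Other transcripts, Primpol and genes that overlap a member were named with their values in view. The alternatives covered other scalings, filters, thresholds, length treatments and tests, and DESeq2 1.42.0 size factors. The members and lists were chosen with earlier results of these data known.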

Additional observations from a re-analysis of the deposited data

How the results depend on the processing

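No paired analysis was possible because the libraries form 1 group. Of 7 members tested between the libraries, 4 were called, beside 40.9% of all genes tested. With a fold of at least 2 it was 1 (Ssbp2), beside 21.5% of all genes. With edgeR's exact test it was 0, beside 0.623% of all genes, and 0 members had an unadjusted p under 0.05. The common dispersion of that test comes from the same 2 libraries. With library totals as the scaling, Ldb1 was no longer called (log2 ratio of replicate 2 to replicate 1 of -0.58). Of the 6 neighbours in the order of levels, 1 differed by more than the spread in TPM, 2 in CPM not divided by length, 4 with protein-coding transcripts and 2 per kilobase of the longest transcript. The cause was not tested. The number of expressed members was between 7 without replicate 1 and 7 without replicate 2, and the mean levels of single members without replicate 1 or 2 are the library values in the report. Directions turned round for Ssbp3 between libraries in TPM (log2 ratio -0.080), for Ssbp4 to Ssbp3 with protein-coding transcripts (0.26), for Lmo2 to Ldb1 in CPM (-0.78) and per kilobase of the longest transcript (-0.35), for Ssbp1 to Twnk on those scales (-2.09 and -0.90) and for Ssbp1 to Tfam in CPM (-1.06). Depth limits Lmo1 and Ldb2, where a count of 0 allows up to 3, and the low counts of Ssbp1, Ssbp2 and Lmo4 transcripts.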
